A study of Homo sapiens with 2 samples.

Results

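The HOXD cluster on chromosome 2 is a row of 9 homeobox genes, HOXD1, HOXD3, HOXD4, HOXD8, HOXD9, HOXD10, HOXD11, HOXD12 and HOXD13, with the homeobox gene EVX2 beside HOXD13. The rule that defines the 10 genes uses their position and no measured value. Taken in were all peaks between the outermost of these genes and all peaks within 3 kb of their transcription start sites (TSSs). This gave 29 of the 114060 peaks of the DMSO library and 35 of the 161184 peaks of the MAK683 library. The genes span 113.4 kb, from 176942200 to 177055635 of chromosome 2 in GRCh37 (hg19).

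ATAC-seq uses the Tn5 transposase to cut open chromatin and to leave adapters at the cut ends, so that open sites gather tags. The cells were G401, an established kidney line of malignant rhabdoid origin, a tumor type that lacks the chromatin remodeling subunit SMARCB1. One group received the solvent DMSO and the other received MAK683 at 3 μM, an inhibitor of Polycomb repressive complex PRC2 that acts through its subunit EED, for 3 days in both cases. Each group had 1 library, so no p-value was computed and no difference has a replicate check. The file of neither library held a peak over SMARCB1, while the promoter of VIM, a mesenchymal filament gene, had 44 tags in DMSO and 41 in MAK683. Of the markers of other cells, the leukocyte gene PTPRC had no promoter peak, but 1 peak over the gene in DMSO and 6 in MAK683. The epithelial genes EPCAM (12 and 11 tags) and CDH1 (18 and 17 tags) had promoter peaks in both libraries. The median over all peaks was 11 tags in DMSO and 10 in MAK683. Over the whole gene, EPCAM had 3 peaks in DMSO and 5 in MAK683, and CDH1 had 5 in each.

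HOX genes encode transcription factors that tell cells where they lie along the body and limb axes. The genes of a cluster stand in the order in which they are used, so that HOXD1 acts towards the head and HOXD13 in the digits and genitalia. In cells that do not use a HOX gene, PRC2 marks its chromatin by methylating lysine 27 of histone H3, and HOX clusters are its best known targets. The comparison asks how accessibility over these genes differed after PRC2 was inhibited.

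The height of a peak is given as the number of tags over its summit and as that number per 1000000 tags after filtering (RPM). Tags after filtering numbered 16598348 in DMSO and 18265284 in MAK683. One tag thus equals 0.0602 RPM in the DMSO library and 0.0547 RPM in the MAK683 library. Peaks of the cluster were low, with 7 to 43 tags in DMSO (median 13) and 7 to 38 tags in MAK683 (median 11), so that each height carries a wide counting error. Intervals are 95%, exact for simple counts, and cover counting error only. Heights are read at the summits of called peaks, and the intervals make no allowance for that choice. In a bulk library, more cells with an open site and a more open site in each cell cannot be told apart.

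Overlapping peaks of the libraries formed 39 regions along the cluster. The windows around the tallest regions and the regions with the extreme height ratios are shown here because the results below turn on them. Each is 300 bases around a summit on the plus strand of GRCh37, with GC boxes (GGGCGG or its complement CCGCCC, read by Sp/KLF factors) in capitals.
Between HOXD13 and HOXD12, tallest in MAK683, chr2:176962305-176962604: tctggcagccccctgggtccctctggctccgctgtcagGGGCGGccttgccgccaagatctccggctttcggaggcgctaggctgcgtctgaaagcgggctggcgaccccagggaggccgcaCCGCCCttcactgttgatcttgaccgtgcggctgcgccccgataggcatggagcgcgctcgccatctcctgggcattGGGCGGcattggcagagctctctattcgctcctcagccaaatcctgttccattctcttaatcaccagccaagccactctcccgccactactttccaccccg
Between HOXD10 and HOXD9, largest ratio of MAK683 to DMSO, chr2:176985574-176985873: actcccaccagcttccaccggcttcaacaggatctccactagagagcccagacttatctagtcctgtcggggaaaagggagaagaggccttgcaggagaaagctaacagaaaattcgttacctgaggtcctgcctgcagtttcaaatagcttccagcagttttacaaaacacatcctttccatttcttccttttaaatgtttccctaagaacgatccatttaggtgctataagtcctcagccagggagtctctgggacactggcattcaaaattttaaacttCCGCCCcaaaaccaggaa
Intron of HOXD3, tallest in DMSO and smallest ratio, chr2:177005211-177005510: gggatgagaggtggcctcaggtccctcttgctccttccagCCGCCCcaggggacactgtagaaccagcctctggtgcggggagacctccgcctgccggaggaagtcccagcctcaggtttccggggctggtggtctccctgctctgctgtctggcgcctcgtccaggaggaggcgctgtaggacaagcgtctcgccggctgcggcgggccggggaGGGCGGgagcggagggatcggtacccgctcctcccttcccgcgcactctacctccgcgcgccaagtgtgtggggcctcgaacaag

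The promoter of HOXD13 had the largest ratio of the 10 genes, and its 250 bases before the TSS are shown with GC boxes and the TATA box (TATAAA, both strands, overlapping here) in capitals.
HOXD13 upstream, chr2:176957199-176957448: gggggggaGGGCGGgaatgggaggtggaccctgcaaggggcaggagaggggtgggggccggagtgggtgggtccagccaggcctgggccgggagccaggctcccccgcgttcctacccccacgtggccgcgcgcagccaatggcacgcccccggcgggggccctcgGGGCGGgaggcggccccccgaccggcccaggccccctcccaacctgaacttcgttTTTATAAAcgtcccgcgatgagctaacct

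Across the whole span, the MAK683 library had slightly more listed peaks and more covered sequence, and lower typical peaks. The span held 29 peaks in DMSO and 34 in MAK683. They covered 22.6 kb and 28.4 kb, which is 19.9% and 25.1% of the span, a ratio of 1.26. With stricter filters the order of the peak numbers turned: there were 22 in DMSO and 18 in MAK683 at a −log10 q-value of at least 5, and 11 and 8 at 10 or more, where the covered length was 13306 and 12679 bp. The ratio of chosen peaks between the libraries was 1.21, against 1.41 over all chromosomes and 1.66 on chromosome 2, where the number rose from 9027 to 14976. The median height was 0.783 RPM in DMSO and 0.602 RPM in MAK683, against 0.663 and 0.547 RPM over all peaks. With all listed peaks, the number in the cluster thus grew by a smaller factor than on the chromosome it lies on. At the stricter filters, and for covered length, no value over all chromosomes is given here. Neither difference is thus shown to be particular to the cluster.

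On the EVX2 side the peaks became sparse outside the cluster, and covered 0.4% of the 50 kb before EVX2 in DMSO and 4.83% in MAK683. Towards HOXD1 they were already sparse inside the cluster. They covered 4.27% of the stretch from HOXD4 to HOXD1 in DMSO and 9.64% in MAK683. In the 50 kb before EVX2 there was 1 peak in DMSO and 4 in MAK683, and in the 50 kb after HOXD1 there was none in DMSO and 1 in MAK683, which lay close enough to the HOXD1 TSS to be among the chosen peaks. Nearest outside the span on the EVX2 side lay a peak of 9 tags in each library, 7210 bp away in DMSO and 2311 bp away in MAK683. The outermost chosen peaks had 20 and 23 tags at EVX2. At the HOXD1 end they had 8 and 11 tags, and the peak of 11 tags lay past the end of the span. Beyond these, the next peak was at MTX2, with 51 tags in DMSO and 23 in MAK683.

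**Figure D1:**
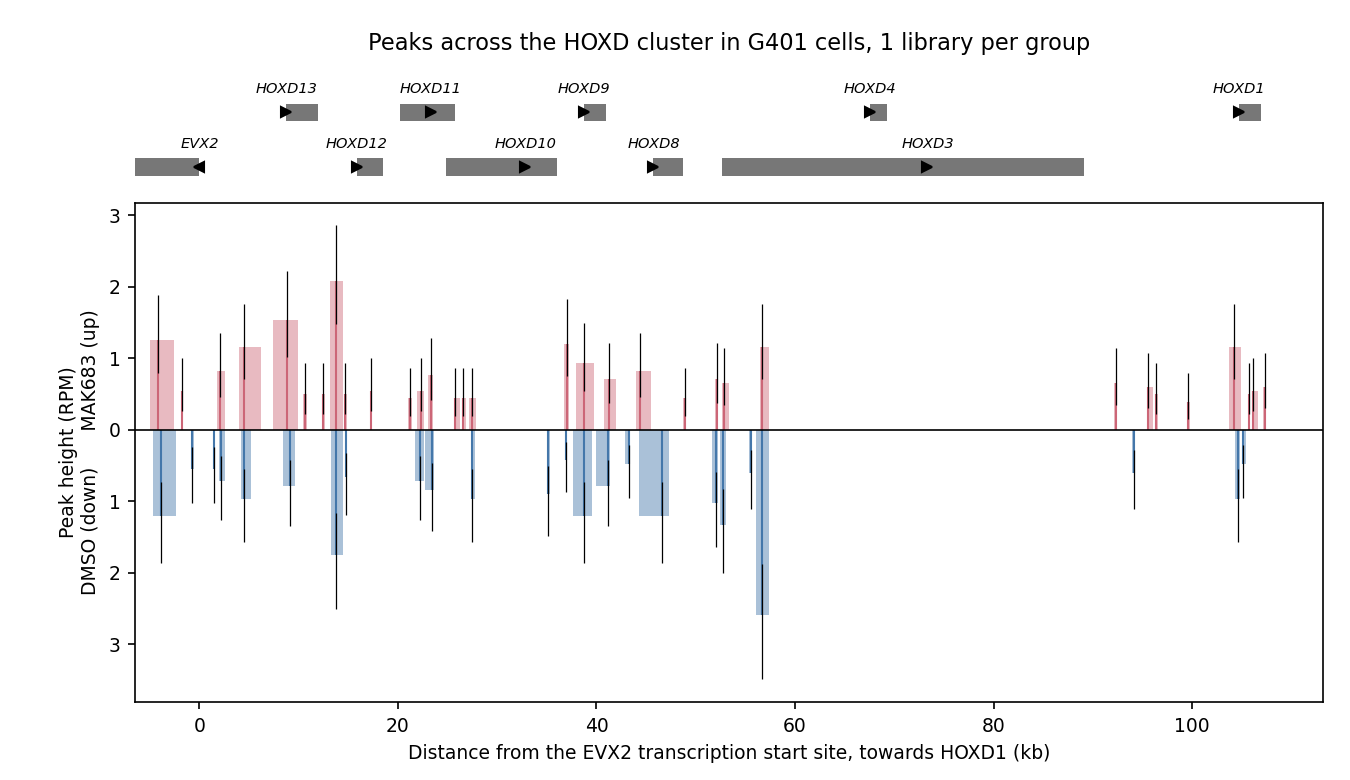
Height in RPM of the tallest peak of each region (bar width, the peak; line, its summit) against the distance in kb from the EVX2 TSS, with MAK683 up and DMSO down, thin black lines for the 95% counting interval, and genes above with arrowheads at the TSS. Peaks lie in a dense block from EVX2 to the distal HOXD3 exons and a sparse one around HOXD1, with 34.7 kb between them that held no peak in either library.

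Of the 10 genes, 7 had a promoter peak in both libraries, HOXD10 had one in DMSO only, and 2 neighbouring genes had none. Of the 10 genes, 8 had a promoter peak (no farther than 3 kb from the TSS) in DMSO, where 72.7% of all protein-coding genes had one. In MAK683 it was 7 of 10, against 78.7% of all. The genes without a peak in either library were HOXD4, which patterns the hindbrain, and HOXD3, which patterns the neck vertebrae. Their TSSs (177016278 and 177022035), with that of the microRNA gene MIR10B, lay in a gap from 177006072 to 177040796 in which neither library had a peak. HOXD3 did have peaks over its distal upstream exons, far from the TSS used here.

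Of the 8 genes with a promoter peak, 4 were higher and 4 lower in MAK683. Over all 16247 protein-coding genes with a promoter peak, 21.5% were higher. The median log2 ratio was 0.03 over the 8 genes and -0.42 over all. This contrast depended on the window: within 1 kb of the TSS the medians were -0.37 over 7 genes and -0.44 over all, and EVX2, HOXD12 and HOXD9 were then lower in MAK683. No member was at least 2-fold higher, where 3.37% of all genes were, and 1 was at least 2-fold lower, where 5.75% of all genes were. Both counts depended on the scaling. HOXD13 passed 2-fold, with a log2 ratio of 1.11 without depth scaling (5.55% of all genes were then 2-fold higher) and 1.30 after centring on all shared regions (7.71%). HOXD10, which rests on the floor described below, came to -0.99 after centring and was then not 2-fold lower. The values of the single genes follow in their order along the chromosome, from the digit end to the head end.

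EVX2 encodes a homeodomain protein related to even-skipped of the fly. Its tallest peak lay over its own 3′ part rather than its TSS, at 20 tags or 1.20 RPM in DMSO (0.736 to 1.86) and 23 tags or 1.26 RPM in MAK683 (0.798 to 1.89). The log2 ratio was 0.06 (-0.87 to 1.0), and the intervals of the libraries overlapped almost entirely. No peak of either library lay over the TSS itself. The summits were 3917 and 4220 bp downstream of it, in the untranslated region, and within 1 kb of the TSS DMSO had a peak of 9 tags and MAK683 had none, which gives -0.58 against the floor described under HOXD10.

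HOXD13, the gene that shapes digits and genitalia, had the largest difference upward. A peak lay over its TSS in both libraries, with 13 tags or 0.783 RPM (0.417 to 1.34) in DMSO and 28 tags or 1.53 RPM (1.02 to 2.22) in MAK683. The height was 1.96 times as large in MAK683, a log2 ratio of 0.97 (-0.03 to 2.04). The interval of this ratio just reached 0. The DMSO summit lay 338 bp into the gene, in coding sequence, and the MAK683 summit 83 bp from the TSS. The promoter printed above is rich in G and C, at 74.0% over the 300 bases around the TSS.

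HOXD12, another gene of the distal limb, had the tallest promoter peak of the 10 genes in both libraries. The peak had 29 tags or 1.75 RPM (1.17 to 2.51) in DMSO and 38 tags or 2.08 RPM (1.47 to 2.86) in MAK683, and the log2 ratio was 0.25 (-0.48 to 1.0). Its summit stood 2044 and 2068 bp upstream of the TSS, between HOXD13 and HOXD12, in the window of 300 bases printed above with 3 GC boxes. A lower peak nearer the TSS had 11 tags in DMSO and 9 in MAK683, a log2 ratio of -0.43 (-1.88 to 0.98). Its MAK683 peak ended just outside a window of 1 kb, so that HOXD12 had -0.87 there, against the floor described under HOXD10.

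HOXD11, which with HOXA11 builds the forearm and takes part in kidney development, differed little. It had 14 tags in both libraries, or 0.843 RPM (0.461 to 1.42) in DMSO and 0.766 RPM (0.419 to 1.29) in MAK683, and a log2 ratio of -0.14 (-1.32 to 1.04). The summits lay 110 and 56 bp downstream of the TSS.

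HOXD10, a gene of the hindlimb and of motor neurons, was the gene with a promoter peak in DMSO and none in MAK683. The DMSO peak had 15 tags or 0.904 RPM (0.506 to 1.49), over a coding exon 2338 bp downstream of the TSS, at 176983741 to 176983958. The MAK683 library listed no peak in the window. Where a library listed none, a floor of 0.361 RPM was used, worth 6 tags of the DMSO library, which gives a log2 ratio of -1.32. Peaks shorter than 200 bp were not listed, so the floor is not a strict upper bound. With a window of 5 kb, 8 of the 10 genes had a peak in each library.

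HOXD9, which acts along the trunk and limb, had nearly the same height in both libraries in a different place. The tallest peak had 20 tags or 1.20 RPM (0.736 to 1.86) in DMSO, 5 bp from the TSS. In MAK683 it had 22 tags or 1.20 RPM (0.755 to 1.82) and lay 1723 bp upstream, between HOXD10 and HOXD9. At the TSS itself MAK683 had 17 tags, with a log2 ratio of -0.37 (-1.40 to 0.63).

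HOXD8, a gene of the mid trunk, was lower in MAK683 by less than the counting error. It had 20 tags or 1.20 RPM (0.736 to 1.86) in DMSO and 15 tags or 0.821 RPM (0.460 to 1.35) in MAK683, and the log2 ratio was -0.55 (-1.62 to 0.49). The summit lay 841 bp into the gene in DMSO and 1377 bp upstream in MAK683.

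HOXD1, the gene at the head end, had a slightly taller peak in MAK683. It had 16 tags or 0.964 RPM (0.551 to 1.57) in DMSO and 21 tags or 1.15 RPM (0.712 to 1.76) in MAK683, with a log2 ratio of 0.25 (-0.75 to 1.29). Summits lay 76 and 495 bp upstream of the TSS. The noncoding RNA gene HAGLR starts there in the opposite direction and shares these peaks.

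**Figure D2:**
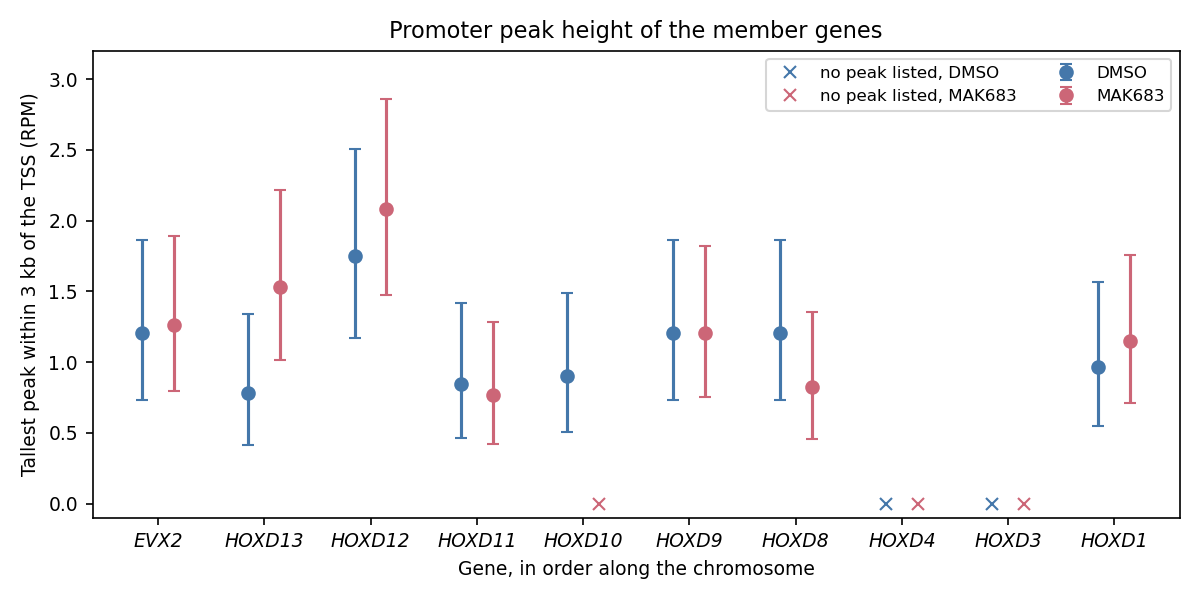
Height in RPM of the tallest peak within 3 kb of the TSS of each gene in DMSO and MAK683, with 95% exact counting intervals and crosses at 0 for genes with no listed peak. The intervals of the libraries overlap for all 7 genes with a peak in both, and are farthest apart at HOXD13 (0.783 and 1.53 RPM).

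The noncoding genes of the cluster had ratios whose intervals all reached 0. HOXD-AS2, an RNA transcribed against HOXD8 and HOXD9, had 22 tags in DMSO and 13 in MAK683, a log2 ratio of -0.90 (-2.01 to 0.16), from neighbouring peaks that did not overlap. HAGLROS, a noncoding gene transcribed against HAGLR, had 10 and 12 tags and a log2 ratio of 0.12 (-1.21 to 1.49). These were different sites, a DMSO-only region at 177042642 to 177042981 and a MAK683-only region at 177040797 to 177041163. MIR10B had no peak.

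Of the 39 regions, 17 had a peak in both libraries, 7 in DMSO only and 15 in MAK683 only. MAK683-only regions made up 38.5% here and 45.9% over the genome, and DMSO-only regions 17.9% here and 25.1% over the genome. Regions of 1 library were mostly low, with 8 to 15 tags (median 9) in DMSO and 7 to 12 tags (median 9) in MAK683. The exceptions were the DMSO peak in HOXD10 (15 tags) and a MAK683 peak in HAGLR (12 tags). Each was above the median of the cluster peaks in its library, 13 tags in DMSO and 11 in MAK683.

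Among the 17 shared regions, 7 were higher in MAK683 (41.2%), where 23.8% of all shared regions were, and 10 were lower, where 76.2% of all were. The median log2 ratio was -0.14, against -0.33 over all shared regions and -0.29 over those of chromosome 2. At least 2-fold higher was 1 region, where 0.873% of all were, and at least 2-fold lower were 3, where 5.54% of all were. The intervals of 2 single regions did not reach 0, 1 in each direction, and these were the regions with the extreme ratios. The same share over all shared regions is not given here. Because the 2 regions are the extremes of 17 ratios, their intervals do not test a change at either.

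The region with the largest ratio lay between HOXD10 and HOXD9, at 176985465 to 176985905. It had 7 tags or 0.422 RPM in DMSO and 22 tags or 1.20 RPM in MAK683, a log2 ratio of 1.51 (0.24 to 2.98). Its window, printed above, holds 1 GC box at its edge. The region with the smallest ratio lay in an intron of HOXD3, at 177004777 to 177006071. It had 43 tags or 2.59 RPM in DMSO, the tallest peak of the cluster there, and 21 tags or 1.15 RPM in MAK683, a log2 ratio of -1.17 (-2.0 to -0.39). It borders the gap without peaks.

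The direction of the shared regions differed along the cluster. From EVX2 to HOXD12, 5 of 6 shared regions were higher in MAK683, and their summed heights were 101 tags in DMSO and 134 in MAK683. From HOXD11 to the distal exons of HOXD3, 9 of 10 were lower, with sums of 184 and 145 tags, beside the 76.2% lower over the genome. The log2 ratios of these sums, scaled for depth, were 0.27 (-0.11 to 0.66) and -0.48 (-0.81 to -0.16). The median log2 ratio of single regions was 0.22 in the EVX2 to HOXD12 stretch and -0.46 in the other, against -0.33 over all shared regions. A ratio of summed heights over all shared regions is not given here. The interval of the EVX2 to HOXD12 stretch reached 0, as did those of each of its regions. From HOXD4 to HOXD1 a single region was shared, that of HOXD1, and 7 regions were in MAK683 only and 2 in DMSO only. The borders of these stretches were set after the values were seen. The counts, sums and intervals therefore describe these libraries only and do not test a difference between stretches.

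**Figure D3:**
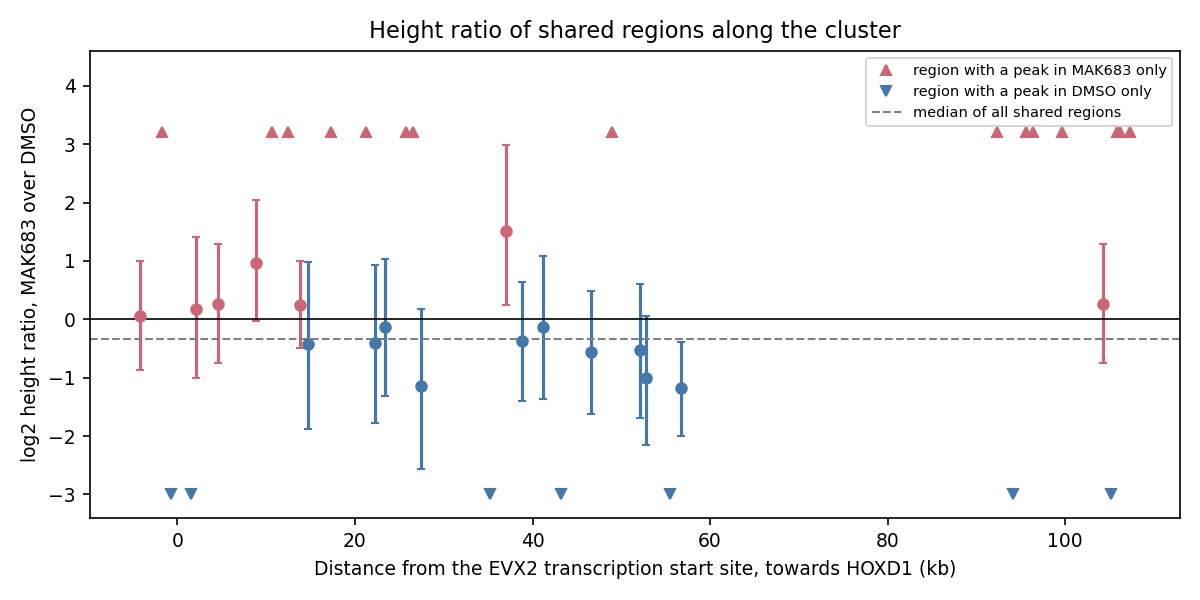
Log2 ratio of height, MAK683 over DMSO, of the 17 shared regions (points, with 95% exact counting intervals, red above 0 and blue below) against the distance in kb from the EVX2 TSS, with the 15 MAK683-only and 7 DMSO-only regions as triangles at the top and bottom edges, which carry no value. Of the 6 shared regions up to HOXD12, 5 lie above 0, and 9 of the next 10 lie below it.

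The region classes also differed in base composition. MAK683-only regions of the cluster had a median GC content of 46.3%, shared regions that were higher 63.3%, shared regions that were lower 61.2% and DMSO-only regions 64.0%. Over the genome the medians were 48.3% for regions of either single library and 54.3% for shared regions. Observed over expected CpG had medians of 0.376 in the 15 MAK683-only and 0.810 in the 7 DMSO-only regions of the cluster. Over the genome these medians were 0.179 and 0.211. The part of base composition in the differences between libraries was not tested.

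Of 5 sequence motifs searched on both strands in 300 bases around each summit, the GC box was the most frequent in the cluster. It was in 14 of 39 regions (35.9%), against 12.8% of all regions and 61.0% of all protein-coding promoters of the same length. The AP-1 motif TGANTCA was in 3 regions (7.69%, against 8.71% of all). All 3 were among the 15 regions in MAK683 only. The AP-1 share of MAK683-only regions over the genome is not given here, so this split has no background beside it. TGATTNAT, bound by HOX proteins with PBX, was in 1 region, and TATAAA in 3. The core consensus of the insulator protein CTCF was in none of the 39, and in 2.04% of all regions. A match describes the letters in the window only.

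The other HOX clusters are the nearest counterparts of the HOXD genes, and their promoters were lower in MAK683. All 30 genes of HOXA, HOXB and HOXC had a promoter peak in at least 1 library. Of these, 30 of 30 were lower in MAK683, where 78.3% of all genes were lower. Their median log2 ratio was -0.64 (range -1.03 to -0.24), against -0.42 over all genes, and -0.78 with a window of 1 kb. After centring on all shared regions, 29 of 30 were lower, where 9573 of all 16247 genes were. The medians were then -0.31 over the 30 genes and -0.09 over all. The 30 genes stand for 27 different pairs of peaks, since neighbours such as HOXC5 and HOXC6 share both peaks. Some of these pairs still have 1 peak in common, as HOXC8 and HOXC9 do in DMSO. In some pairs the libraries had different sites. For HOXA9 the DMSO summit lay 4377 bp downstream of the TSS and the MAK683 summit 4206 bp upstream. Another 2 genes, HOXA5 and HOXB1, were set against the floor. The 9 HOXD genes without EVX2 had a median of 0.00 over 7 with a peak, of which 3 were higher. Within 1 kb, the 10 genes with EVX2 had a median of -0.37 over 7 with a peak, of which 5 were lower. The median over all genes was then -0.44. Covered length was 0.691, 0.666 and 0.597 times that of DMSO in HOXA, HOXB and HOXC, and 1.24 times in HOXD. With a −log10 q-value of at least 10 it was 0.592, 0.0945 and 0.316 times, and 0.687 times in HOXD. For regions shared by the libraries, the log2 ratios of summed heights were -0.69 (-0.87 to -0.51), -0.61 (-0.81 to -0.40) and -0.70 (-0.87 to -0.53) in those clusters and -0.21 (-0.47 to 0.05) in HOXD. These sums leave out regions called in 1 library, 13 in MAK683 only and 5 in DMSO only for HOXD, and are not ratios of the whole clusters.

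The clusters differed in the DMSO library as well. In DMSO, peaks covered 60.7% of HOXA, 22.2% of HOXB and 70.1% of HOXC, and 17.7% of HOXD without EVX2. HOXA and HOXC were the most open, and HOXD and HOXB the least covered. EVX1, the counterpart of EVX2 beside HOXA, had 9 tags in DMSO and 16 in MAK683, a log2 ratio of 0.69 (-0.57 to 2.05), with summits 1817 and 3167 bp from the TSS.

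**Figure D4:**
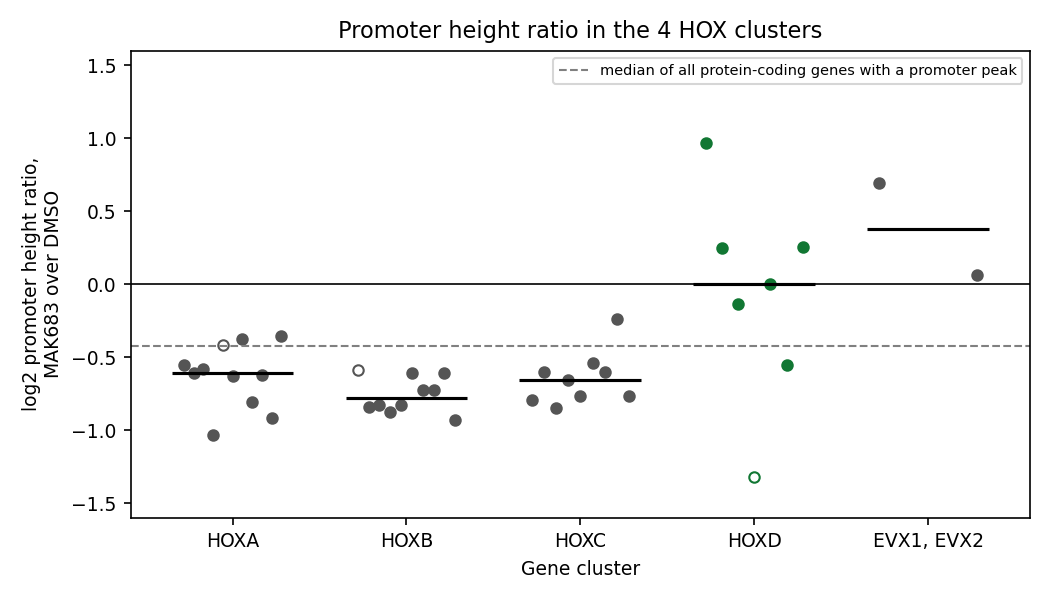
Log2 ratio of promoter height, MAK683 over DMSO, for each gene with a promoter peak in the 4 HOX clusters and for EVX1 and EVX2, with a black bar for the median of each set and open circles where 1 library was set to the floor. All genes of HOXA, HOXB and HOXC lie below 0, and the HOXD genes spread from -1.32 (HOXD10) to 0.97 (HOXD13).

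HOX proteins bind DNA together with the PBX, MEIS and PKNOX cofactors, and 8 of these 9 genes were lower in MAK683, with a median log2 ratio of -0.39. This is near the 78.3% lower and the median of -0.42 over all genes. MEIS1 was the gene that was higher, with 19 tags in DMSO and 39 in MAK683 and a log2 ratio of 0.90 (0.07 to 1.77). Its summit lay 175 bp upstream of the TSS in DMSO and 1528 bp upstream in MAK683, so the heights are from different positions. PBX3 was the lowest, with 51 and 34 tags and -0.72 (-1.39 to -0.07). None of the 9 reached 2-fold in either direction. The protein-coding neighbours of the cluster were lower too. LNPK, an endoplasmic reticulum gene on the EVX2 side, had 49 and 37 tags and a log2 ratio of -0.54 (-1.20 to 0.10), and MTX2, a mitochondrial import gene on the HOXD1 side, -1.29 (-2.06 to -0.55).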

How the data were processed

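ATAC-seq libraries of G401 cells, 1 with DMSO and 1 with MAK683 (3 days, 150 bp paired reads per the labels), were analysed from the peak list of each. The methods of the study give trimming and Bowtie2 alignment to hg19. The authors then called peaks, per the file headers, with MACS 2.1.1.20160309 on each library alone, without a control or a local background, with tags shifted by -100 bp and extended to 200 bp, read as single ends, 1 tag kept per position and a q-value cutoff of 0.05. The labels and methods name other versions (2.1.0 and 2.2.7.1). Tags after filtering numbered 16598348 in DMSO and 18265284 in MAK683.

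The deposited pileup is a signal in whole tags over the summit, with no scaling for depth. Fold enrichment, as deposited, is a ratio to the background of the library. The deposited −log10 p-value was not used. The deposited −log10 q-value depends on depth and served only as a filter.

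Peaks were joined to the GENCODE 44 annotation of GRCh37, with 1 TSS per gene, and peaks of the libraries that overlapped by 1 bp were merged into regions. For each gene the tallest peak that reached within 3 kb of its TSS gave the promoter height, and called means at least 2-fold. Heights have exact Clopper-Pearson intervals and log2 ratios exact conditional binomial intervals. The interval code was tested on simulated counts drawn without peak calling. Without molecular identifiers, reads may copy the same molecule. The named genes were all members, the other HOX genes, the cofactors and the genes next to the cluster. Members, lists and motifs were chosen with earlier results of these data known. Of 6 marker genes, 1 had no entry that matched. Python 3.11.15, numpy 2.4.6, pandas 2.3.3 and scipy 1.17.1 were used.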

Additional observations from a re-analysis of the deposited data

How the results depend on the processing

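No paired analysis was possible because each group had 1 library. Of 75 values recomputed under other settings, 69 stayed within the counting error or within 1.5 times and 6 moved. With a −log10 q-value of at least 5, the span held 22 peaks in DMSO and 18 in MAK683, and with at least 10 it held 11 and 8, so the order of the peak numbers turned, and the covered length was then 13306 bp in DMSO and 12679 bp in MAK683. The cause was not tested. The median log2 promoter ratio of the genes was -0.37 within 1 kb of the TSS and 0.03 to 0.36 under the other settings. HOXD12 moved to -0.87 within 1 kb. EVX2 and HOXD9 also took a negative sign there, within counting error. That a summit must lie within 3 kb of the TSS was a setting chosen after seeing the data, and gave a median of 0.09. Heights near 10 tags limit what can be seen: with depth scaling, a HOXD13 ratio near 2 still had an interval that just reached 0. Its intervals without depth scaling and after centring are not given here.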
